A study of Mus musculus with 2 samples.

Results

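The HoxB genes are 1 of the 4 clusters of Hox genes in the mouse, and their members are Hoxb1 to Hoxb9 and Hoxb13, 10 genes in all. They were followed here through the probe sets (groups of short probes for 1 transcript) that carry a HoxB symbol and no other gene. There were 11 such probe sets, and they covered 9 of the 10 genes, out of 18193 genes with a probe set on the array. Hoxb3 and Hoxb4 had 2 probe sets each and the other 7 genes had 1. The only probe set that carries the symbol Hoxb8 also carries Hoxb7, so it stood for neither gene, and Hoxb8 was not analysed here.

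Hox genes encode homeodomain transcription factors that give cells their position along the body axis. They lie in clusters in the order in which they are used: genes of low number, at one end, act in the hindbrain and neck, and genes of high number act towards the tail. Outside their territory they are kept silent by Polycomb complexes, of which PRC1 compacts chromatin and PRC2 places the repressive methyl mark on histone H3, while trithorax proteins keep active Hox genes on. Fibroblasts in culture retain a Hox pattern that reflects where in the embryo they came from.

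The study compared mouse embryonic fibroblasts, which are cells grown out of dissociated embryos, of 2 genotypes. One culture was wild type and the other homozygous for Phc2 L307R, a missense change in the SAM domain through which this PRC1 subunit polymerises; the series title names the question, which is the link between this polymerisation and gene silencing. Both cultures are labelled C57BL/6, embryonic day 12.5 and passage 1, and total RNA of each was hybridised to 1 Affymetrix array. Whether a culture came from 1 embryo or several was not stated in the sources used here. With 1 array per genotype, no value below has a replicate error and no difference could be tested.

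The signal is a linear intensity per probe set. The floor, a line between background and signal, was set at 94.8, which is the larger of both arrays' medians. A gene counted as measured if 1 or both of its signals exceeded the floor, as 62.7% of genes did (11408 of 18193). Log2 ratios are Phc2 L307R over wild type. Over 45037 probe sets the arrays had a Spearman correlation of 0.955. All 10 fibroblast markers lay above the floor on both arrays, with signals that sum to 129410 on the wild-type array and 169601 on the other, and Col1a1, the main collagen of connective tissue, had 16448 and 21724. Markers of other cells were also measured, and are given with the summed signal of each whole list, members below the floor included: 6 of 6 for cartilage (4902 for wild type and 7126 for Phc2 L307R), 4 of 5 for skeletal muscle (10331 and 13626), 4 of 7 for neural cells (2673 and 2887), 3 of 5 for endothelium (642.9 and 587.2), 3 of 5 for macrophages (418.6 and 574.2) and 3 of 6 for epithelium (1205 and 940.9). Snap25, Olig2 and Pax6 of neurons and glia, Pecam1 and Cdh5 of endothelium, Ptprc and C1qa of macrophages and Epcam, Cdh1 and Krt14 of epithelium lay below the floor on both arrays. At least 2-fold apart were the cartilage genes Matn1 (log2 ratio at least 1.62), Hapln1 (1.04) and Comp (1.02), 3 of 6 with a median of 0.88 over that list. Of these 6 cartilage markers 5 were higher and 1, Sox9 (-0.29), was lower. Among all measured genes 1.11% were at least 2-fold apart. The neuronal Map2 (-1.31) and the endothelial Emcn (-1.15) also differed 2-fold, but Emcn read 94.9 in Phc2 L307R, just above the floor. Of 4 measured neural markers 2 were higher and 2 lower, with a median of 0.05. Of 3 measured endothelial markers 2 were higher and 1 lower, also with a median of 0.05. The part of these cell types in the HoxB signals was not tested. In RNA of a whole culture, fewer cells that express a gene and less RNA per cell cannot be told apart.

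Among the HoxB genes, 6 of 9 were measured: Hoxb2, Hoxb3, Hoxb4, Hoxb5, Hoxb6 and Hoxb9, each above the floor on both arrays. Hoxb1, Hoxb7 and Hoxb13 stayed below the floor on both. No member differed 2-fold between the genotypes, against 1.11% of all measured genes, and none differed 1.5-fold, against 7.44%. Over 6 genes both shares come to fewer than 1 gene, so the counts of 0 lie near the background. The largest difference was in Hoxb3, at a log2 ratio of -0.41, but its other probe set gave 0.27. The background was also read from 84 probe sets of olfactory, vomeronasal and taste receptor genes, which fibroblasts are not known to use: their median signal was 15.0 on the wild-type array and 18.1 on the Phc2 L307R array, and the brightest reached 97.0 and 143.4.

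**Figure D1:**
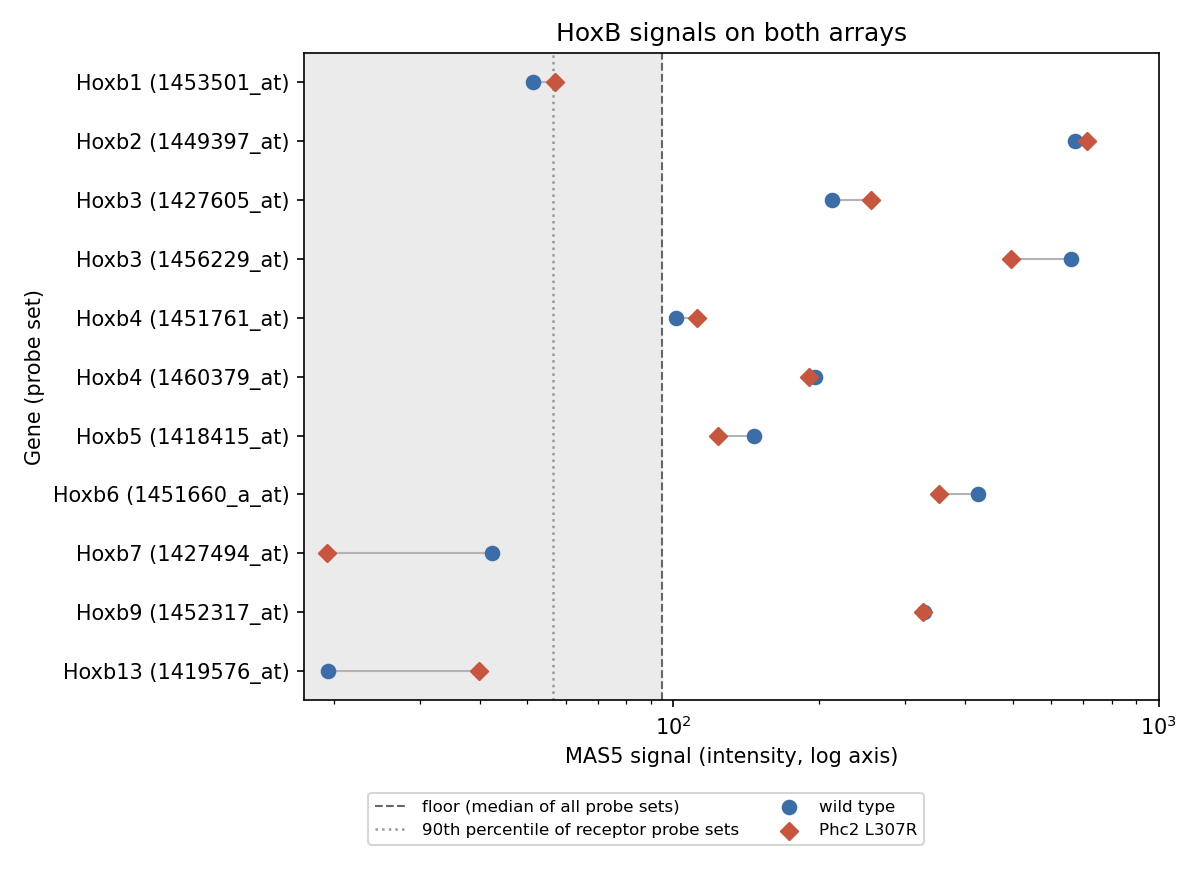
MAS5 signal (log axis) of the 11 HoxB probe sets on the wild-type array (blue circles) and the Phc2 L307R array (red diamonds), 1 array each; the dashed line is the floor of 94.8 and the dotted line, at 56.6, the 90th percentile of receptor probe sets in Phc2 L307R. The probe sets of Hoxb1, Hoxb7 and Hoxb13 lie in the grey area below the floor, and the other 8 lie above it with both symbols close together.

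The promoters of a member at background and of a measured member are shown to set the letters beside the values. The RefSeq promoter table (build GRCm38.p6) held a window for 3 members, Hoxb1, Hoxb4 and Hoxb8. The 250 bases before the start, on the + strand, are given 5′ to 3′ with each CG dinucleotide in capitals, the pair of letters at which mouse DNA is methylated and whose density goes with Polycomb binding. The Hoxb1 window is chr11:96365508-96365757 and the Hoxb4 window is chr11:96318017-96318266.
Hoxb1: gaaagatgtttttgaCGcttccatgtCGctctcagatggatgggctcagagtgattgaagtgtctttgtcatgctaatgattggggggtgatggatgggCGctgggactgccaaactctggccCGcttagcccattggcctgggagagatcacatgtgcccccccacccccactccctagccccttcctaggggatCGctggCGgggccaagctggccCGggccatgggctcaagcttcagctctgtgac
Hoxb4: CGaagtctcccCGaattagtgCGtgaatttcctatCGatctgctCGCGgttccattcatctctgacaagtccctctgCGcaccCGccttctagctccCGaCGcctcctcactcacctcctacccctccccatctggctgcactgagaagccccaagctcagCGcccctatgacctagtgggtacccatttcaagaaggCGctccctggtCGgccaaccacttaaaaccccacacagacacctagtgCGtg
The Hoxb1 window held 7 CG dinucleotides and the Hoxb4 window 14, while the median over 32851 promoter windows of the table was 6. The Hoxb8 window, at chr11:96281655-96281904, held 12. The share of G and C was 59.2% in Hoxb1, 58.0% in Hoxb4 and 44.4% in Hoxb8, against a median of 52.4%.

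The windows were searched for 3 kinds of site on both strands. TGATNNAT, the composite site of Pbx and Hox proteins, is shown because Hoxb1 is known to maintain its own transcription together with Pbx through such sites. It occurred 1 time in Hoxb1, starting 162 bases before the start, 1 time in Hoxb8 and not in Hoxb4, and 7.68% of all windows hold it. The Hoxb1 stretch, with the match in capitals, reads as follows.
Hoxb1 site: tgattggggggTGATGGATgggcgctggga
CCAAT, the box bound by NF-Y, occurred 2 times in Hoxb1, 1 time in Hoxb8 and not in Hoxb4 (33.8% of all windows). TATAAA, the letters of the TATA box, occurred 2 times in Hoxb8 and in neither of the others (12.4% of all windows). Both matches in Hoxb8 lie on the strand opposite to the gene. These are matches of letters in a short window and say nothing about binding; the sites may overlap.

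The members of low number, Hoxb1 to Hoxb4, are best known from the hindbrain. Hoxb1, which specifies the part of the hindbrain that makes the facial nerve, read 51.4 on the wild-type array and 57.0 on the Phc2 L307R array. Both values lie below the floor, so no ratio is given, and they were above 89.3% and 90.5% of the receptor probe sets. Hoxb1 thus stayed near background on both arrays.

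Hoxb2, a hindbrain gene switched on there by the zinc finger factor Egr2, read 672.8 on the wild-type array and 711.1 on the Phc2 L307R array. Both signals exceeded those of all 84 receptor probe sets and the log2 ratio was 0.08. It was the one measured member whose representative probe set, the one of highest mean signal, was higher in Phc2 L307R. Hoxb2 lies next to Hoxb1, which was at background.

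Hoxb3 acts in the hindbrain and in the pharyngeal arches. Its brighter probe set, 1456229_at, read 661.1 on the wild-type array and 497.5 on the Phc2 L307R array, a log2 ratio of -0.41. Its other probe set, 1427605_at, read 212.6 on the wild-type array and 255.9 on the Phc2 L307R array, a log2 ratio of 0.27. The 2 probe sets of this gene therefore went in opposite directions, with a gap of 0.68 between them. For comparison, log2 ratios of probe sets lay around the mean of their gene with an SD of 0.32, pooled over 5460 genes with at least 2 measured. A gap between 2 probe sets spreads wider than this SD, because both of them vary. Among all measured genes, 18.2% had a log2 ratio at least as far from 0 as that of the brighter Hoxb3 probe set. The mean over both probe sets was -0.07.

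Hoxb4 is known for the expansion it gives to blood stem cells when it is overexpressed. Probe set 1460379_at read 196.2 on the wild-type array and 190.2 on the Phc2 L307R array, a log2 ratio of -0.04. Probe set 1451761_at, made from the same sequence record, had 101.2 and 111.7, a log2 ratio of 0.14. Both arrays were nearly level at either probe set, and the second lay just above the floor. Its signal of 111.7 in Phc2 L307R was above 94.0% of the receptor probe sets, so this probe set was close to background too. The mean over both was 0.05.

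The middle members, Hoxb5 to Hoxb8, act in the trunk. Hoxb5, a factor of the enteric neural crest and of lung branching, read 146.6 on the wild-type array and 123.8 on the Phc2 L307R array, a log2 ratio of -0.24. The signal was 1.55 times the floor in wild type and 1.31 times in Phc2 L307R, where the brightest receptor probe set was brighter. Hoxb5 was thus measured, but only a little above background.

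Hoxb6, expressed in the lateral mesoderm that gives rise to limb and body wall, read 424.3 on the wild-type array and 353.3 on the Phc2 L307R array. Its log2 ratio was -0.26, the lowest value of a member after the brighter Hoxb3 probe set. Both signals lay well above the floor and above all receptor probe sets. The difference was smaller than the SD of 0.32 between probe sets of 1 gene.

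Hoxb7, a gene of the nephric duct and trunk whose promoter is widely used to drive transgenes in the ureteric bud, read 42.3 on the wild-type array and 19.3 on the Phc2 L307R array. Both were below the floor. As deposited these values stand at a log2 ratio of -1.13, and of the 6785 genes below the floor on both arrays, 36.0% differed 2-fold or more as deposited. The Hoxb7 signal was above 85.7% of the receptor probe sets in wild type and 52.4% in Phc2 L307R. This probe set therefore gave no measured level on either array. Hoxb8, a factor of myeloid progenitors and of the spinal cord, had no probe set of its own.

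The members of high number lie at the other end. Hoxb9, which takes part in patterning the ribs, read 327.8 on the wild-type array and 327.2 on the Phc2 L307R array. Its log2 ratio was 0.00, the most level of the measured members, and both signals lay above all receptor probe sets. Hoxb13, a gene of the tail bud and prostate that lies apart from the rest of the cluster, read 19.4 on the wild-type array and 39.7 on the Phc2 L307R array. Both were below the floor and above 56.0% and 77.4% of the receptor probe sets, so Hoxb13 stayed at background on both arrays. As deposited its values stand at a log2 ratio of 1.03, opposite in sign to those of Hoxb7.

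**Figure D2:**
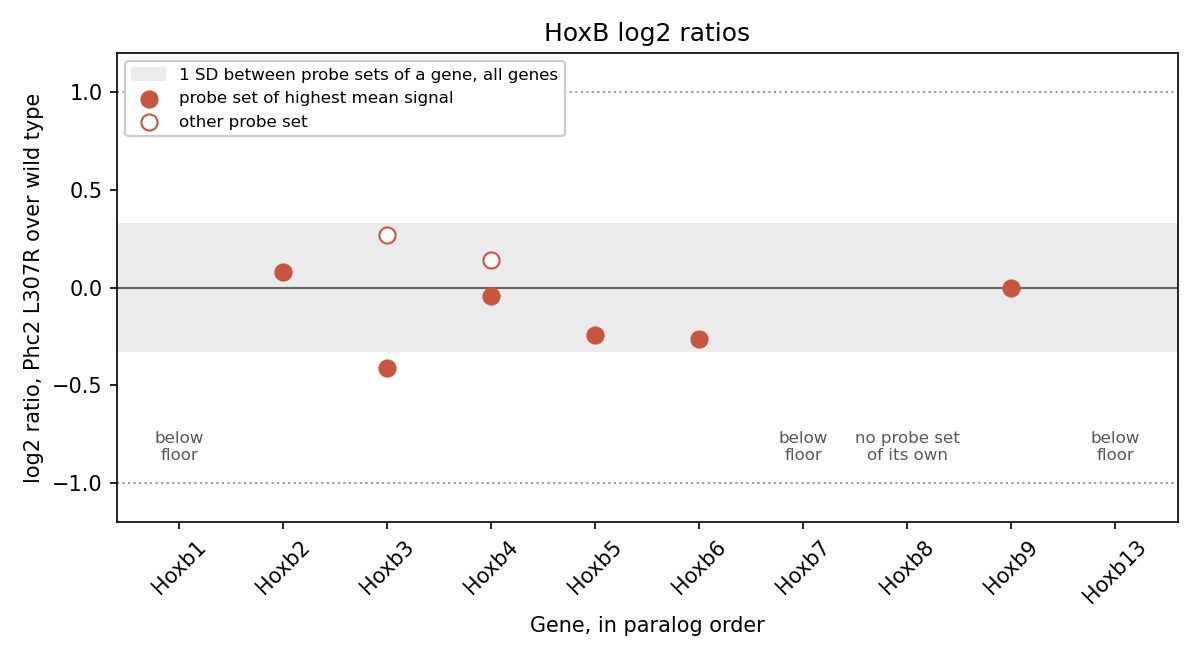
Log2 ratio, Phc2 L307R over wild type, of each HoxB probe set above the floor, with genes in paralog order; filled points are the probe set of highest mean signal of each gene, open points the other one, and the grey band is 1 SD (0.32) between probe sets of 1 gene over all genes. The dotted lines mark 2-fold, and only the brighter Hoxb3 probe set, at -0.41, lies outside the band.

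Of the 6 measured members, 5 had a log2 ratio below 0 and 1 above, while 40.9% of all measured genes had one below 0. The 5 include Hoxb9 (-0.003) and Hoxb4 (-0.04), which were nearly level. The median log2 ratio of the 6 members was -0.14, beside 0.06 over all measured genes. Of the 6, 5 lay within 0.32 of 0, as did 72.3% of all measured genes, so this count lies near the background. Over all probe sets the lean was smaller: of the 8 measured HoxB probe sets, 5 were lower and 3 higher (45.6% of all measured probe sets with 1 gene were lower), with a median of -0.02 beside 0.03 over all measured probe sets with 1 gene. The median of the members was -0.04 with the mean over probe sets, with a higher floor at the 60th percentile of signals, with one at the 90th percentile of receptor probe sets and without a floor, so its size depends on these choices. The 127 genes that differed 2-fold were 66 higher and 61 lower, or 47 and 75 with ratios centred on the median of measured genes; no HoxB gene was among them with either scaling.

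**Figure D3:**
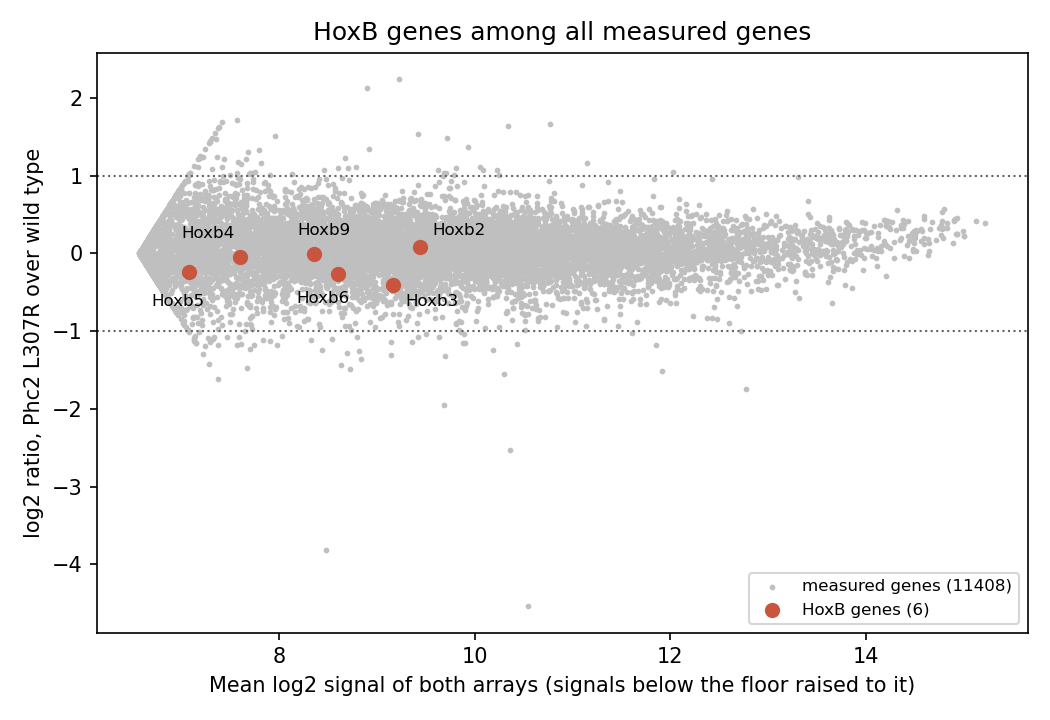
Log2 ratio, Phc2 L307R over wild type, against the mean log2 signal of both arrays for 11408 measured genes (grey) and the 6 measured HoxB genes (red); dotted lines mark 2-fold. The HoxB genes lie between -0.41 and 0.08, inside the cloud of genes of like signal.

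The spread that a gene of this brightness shows was taken from all measured probe sets. Between the floor and a mean signal of 300, where 4 HoxB probe sets lie, the SD of the log2 ratio was 0.40 and 12.3% of probe sets differed 1.5-fold. Between 300 and 1000, where the other 4 lie, the SD was 0.35 and 7.83% differed 1.5-fold. None of the 8 differed 1.5-fold, as 8.66% of all measured probe sets with 1 gene did. Over 8 probe sets this share comes to fewer than 1, so the count of 0 lies near the background.

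Inside the cluster, the RefSeq gene table lists 9 genes that are no HoxB members, among them non-coding RNAs, a pseudogene and the microRNAs Mir196a-1 and Mir10a. One of the 9 had a probe set of its own, Hoxb5os, a non-coding RNA transcribed across Hoxb5 and Hoxb6 from the other strand. Its signal was 666.2 on the wild-type array and 709.9 on the Phc2 L307R array, a log2 ratio of 0.09. Hoxb5 and Hoxb6, which it overlaps, stood at -0.24 and -0.26.

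Beyond the ends of the cluster, the nearest gene with a probe set was below the floor on both arrays on either side, Ttll6 only just so in Phc2 L307R. Ttll6, on the side of Hoxb13, read 38.9 on the wild-type array and 89.7 on the Phc2 L307R array, and Skap1, on the side of Hoxb1, had 29.0 and 26.8. Calcoco2, next to Ttll6, was below the floor as well. Farther out on the side of Hoxb13, Atp5g1 (a subunit of ATP synthase), Ube2z (a ubiquitin-conjugating enzyme) and Snf8 (an endosomal sorting protein) had log2 ratios of 0.27, 0.20 and 0.17. On the side of Hoxb1, Snx11 (a sorting nexin) stood at 0.29, Cbx1 (a heterochromatin protein) at -0.05, with other measured probe sets from -0.31 to 0.43, Gm11517 at -0.71 and the stress factor gene Nfe2l1 at 0.50. Of the 10 neighbours 7 were measured, and 0 of these differed 2-fold, against 1.11% of all measured genes; the other 3, Ttll6, Calcoco2 and Skap1, gave no ratio because both their signals lay below the floor.

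The paralogs of the HoxB genes, which are the genes of the same number in the other clusters, were set beside them. In group 2, Hoxa2 stood at -0.62, where Hoxb2 was at 0.08. In group 3, Hoxa3 was at -0.44 (0.10 at its other measured probe set), Hoxb3 at -0.41 and Hoxd3 at -0.22 or lower, since it lay below the floor in Phc2 L307R. In group 4, Hoxa4 was at -0.40 or lower, Hoxb4 at -0.04 and Hoxc4 at -0.05. In group 5, Hoxa5 was at -0.53, Hoxb5 at -0.24 and Hoxc5 at -0.40. In group 6, Hoxb6 was at -0.26 and Hoxc6 at -0.05. In groups 3 to 6 the representative probe set of each measured gene thus stood below 0, a pattern read off after the values were seen, and the other probe sets of Hoxa3, Hoxb3 and Hoxb4 went the other way, as did 1 of those of Hoxc6 (0.17).

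Values of the paralogs of high number follow. Hoxa7 read 83.6, below the floor, on the wild-type array and 194.8 on the other, while Hoxb7 was below the floor on both arrays. In group 9, Hoxb9 was at 0.00, Hoxa9 at -0.29 (0.31 at its other probe set), Hoxc9 at 0.20 and Hoxd9 at 0.53. In group 13, Hoxd13 read 576.9 on the wild-type array and 902.3 on the Phc2 L307R array, a log2 ratio of 0.65, while Hoxb13 lay at background. Hoxa13 (64.0 and 110.1) and Hoxc13 (73.3 and 148.3) lay below the floor on the wild-type array and above it on the other, at log2 ratios of at least 0.22 and at least 0.65. By cluster, the median log2 ratio was -0.14 over 6 measured HoxB genes, -0.29 over 9 HoxA genes, -0.05 over 7 HoxC genes and 0.32 over 6 HoxD genes. These medians take 1 probe set per gene and include the bounds of Hoxa4, Hoxa7, Hoxa13, Hoxc13 and Hoxd3. They depend on the probe set chosen: Hoxd8 stood at 0.68, but its other probe set gave -0.15. The median size of the log2 ratio, whatever its sign, was 0.16 for HoxB, 0.40 for HoxA, 0.20 for HoxC and 0.37 for HoxD, beside 0.20 over all measured genes. Of the 6 HoxB genes 0 differed 2-fold, as did 1 of 9 HoxA genes, 0 of 7 HoxC genes and 0 of 6 HoxD genes. Among all measured genes 1.11% did, a share that comes to fewer than 1 gene in each cluster. The HoxA gene was Hoxa7, whose log2 ratio of at least 1.04 is a bound, since its wild-type signal lay below the floor. These differences between clusters were not tested.

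**Figure D4:**
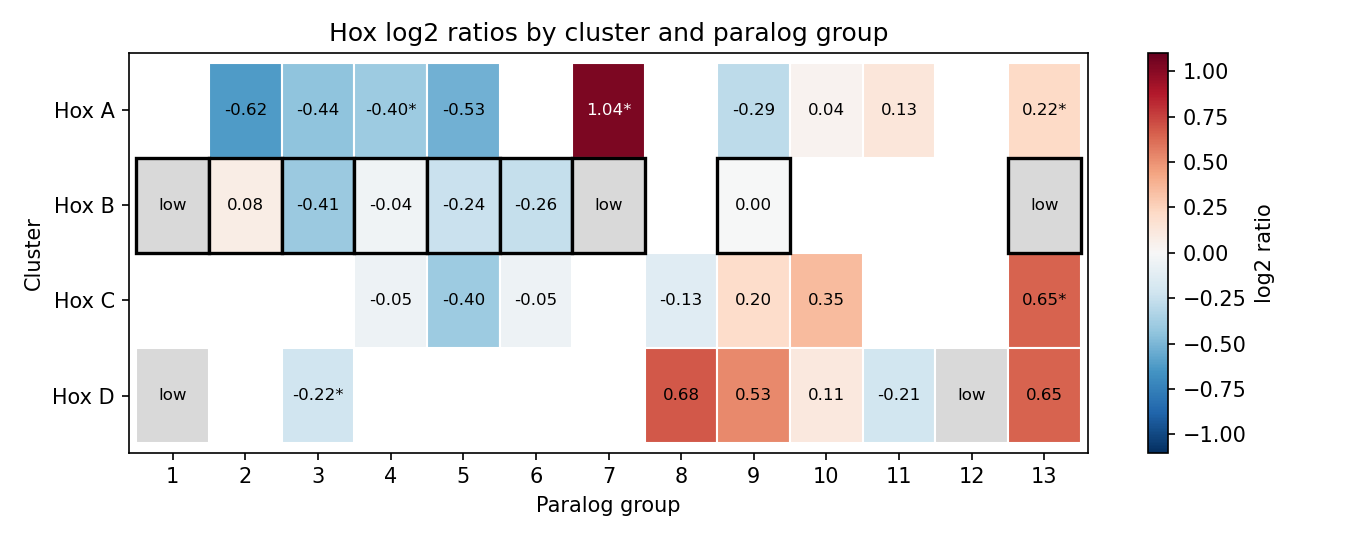
Log2 ratio, Phc2 L307R over wild type, of each Hox gene at its representative probe set, by cluster (rows) and paralog group (columns); the HoxB genes are outlined, "low" marks genes below the floor on both arrays, an asterisk a bound, and white places hold no gene or no probe set of 1 gene. The measured HoxB values run from -0.41 to 0.08, while the other clusters reach -0.62 in Hoxa2 and 1.04 in Hoxa7.

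Hox proteins bind DNA together with cofactors of the Meis, Pbx and Pknox families. Of 8 cofactor genes with a probe set 7 were measured, 4 higher and 3 lower, with a median log2 ratio of 0.10, and 0 differed 2-fold. Meis2 was at -0.95 (signal 2540 in wild type and 1318 in Phc2 L307R), but its 4 probe sets ran from -1.33 to 0.28. Meis3 was at 0.58. Pknox1 was at 0.55, and its other probe sets gave 0.06 and -0.15.

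Retinoic acid, made from vitamin A, switches on HoxB genes in the embryo through its nuclear receptors. Of 16 genes of this pathway with a probe set 12 were measured, 10 higher and 2 lower, with a median log2 ratio of 0.29, and 0 differed 2-fold. Over all measured genes the median was 0.06, 40.9% lay below 0 and 1.11% differed 2-fold. Crabp2, which carries retinoic acid to its receptors, was at 0.75 (1153 and 1936). Rxrb, a partner of the retinoic acid receptors, was at -0.65. Rarb, a receptor that is itself a retinoic acid target, was at 0.56, with 188.8 in wild type and 277.9 in Phc2 L307R.

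Of 11 other known activators of HoxB genes with a probe set, 7 were measured, 5 higher and 2 lower, with a median log2 ratio of 0.03, and 5 lay within 0.32 of 0, beside 72.3% of all measured genes. Usf2 was at 0.67, Egr2 at -0.53 and the Polycomb-related zinc finger factor Yy1 at -0.13. Cdx1, Cdx2 and Cdx4, the caudal factors that activate trunk Hox genes in the embryo, were below the floor on both arrays.

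The trithorax genes, whose products maintain active Hox genes, split into 4 higher and 7 lower over 11 measured members, with a median log2 ratio of -0.03. The histone demethylase Kdm6a was at -0.37, Kmt2b at 0.31 and Dpy30 at -0.23. Of 15 Polycomb genes with a probe set 14 were measured, 9 higher and 5 lower, with a median of 0.23. Phc2 itself read 3184 on the wild-type array and 4079 on the Phc2 L307R array, a log2 ratio of 0.36. Cbx8 was at 0.78, Ezh2, the methyltransferase of PRC2, at -0.66 and Phc1 at 0.59. In none of the lists of cofactors, retinoic acid genes, activators, trithorax genes and Polycomb genes did a member differ 2-fold, as 1.11% of all measured genes did. The counts of higher and lower genes in these lists stand beside 40.9% of all measured genes below 0. Their medians stand beside 0.06 over all measured genes.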

How the data were processed

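Total RNA of 2 fibroblast cultures was hybridised to 1 Affymetrix array each. The authors deposited 1 table of linear intensity values (signals) for 45101 probe sets. Per the submitters' processing notes, they were made with Affymetrix Expression Console and MAS5, which turns the probes of a probe set into 1 signal, with no version; how arrays were scaled is not stated in the sources used here, but the mean signal with 2% trimmed at each end was 500.0 on both arrays. No scanner files or detection calls were used. The number of arrays limits the precision.

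The 64 control probe sets were left out. Symbols came from the platform annotation and were updated through the RefSeq gene table of GRCm38.p6 (34741 of 34945 probe sets with 1 symbol matched; 932 had several and 9160 none). Where a gene had several probe sets, the one with the highest mean log2 signal represented it. Signals below the floor of 94.8 were raised to it before the log2 ratio was taken. Genes were counted by size alone, at 2-fold, with no test. The spread used is the SD of probe sets of 1 gene around their mean, 0.32. It comes from differences between probe sets on the same 2 arrays and holds no spread between cultures. The named genes were all HoxB probe sets, genes inside the cluster, the 5 nearest genes with a probe set on each side, paralogs, and from each list up to 3 measured genes, those farthest from a log2 ratio of 0 (Phc2 in addition). Col1a1, Sox9, Cdx1, Cdx2, Cdx4 and the markers below the floor were named outside this rule, after their values were seen. No gene was named for a pattern like that of the HoxB genes, since 2 arrays give 1 ratio per gene. The members and lists were chosen with earlier results of these data known. The calculations were tested on simulated data, with known folds placed only in genes well above the floor on both arrays. Genes nearer the floor, such as Hoxb5, were not covered by it. Python 3.11.15, pandas 2.3.3 and statsmodels 0.14.6 were used.

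The alternatives were quantile normalization, loess (span 0.4, 3 iterations), centring, 4 other floors (40th and 60th percentiles, the 90th percentile of receptor probe sets, none), the floor as a pseudocount, the mean over probe sets, no _x_at and _s_at probe sets, and thresholds of 1.5-fold and 3-fold. The planned homeodomain comparison was not made, and the planned search for a retinoic acid receptor repeat is not reported because its letters did not have the spacing of that element.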

Additional observations from a re-analysis of the deposited data

How the results depend on the processing

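The count of measured HoxB genes, 6, became 5 at a floor of the 60th percentile, which Hoxb5 missed, 7 at a floor of the 90th percentile of receptor probe sets, where Hoxb1 was added at a log2 ratio of 0.01, and 9 without a floor. Without a floor, 1 member was at least 2-fold higher (Hoxb13) and 1 at least 2-fold lower (Hoxb7). Both genes lie below the main floor of 94.8 on both arrays. In that setting 1325 of all 18193 genes were at least 2-fold higher and 1396 at least 2-fold lower. A count of 1 among 9 members in each direction thus lies near the background. Under the other 9 settings and at thresholds of 1.5-fold and 3-fold, both counts were 0. The median log2 ratio of measured members, -0.14, ran from -0.21 with centred ratios to -0.04. The representative values ran from 0.02 to 0.08 for Hoxb2, from -0.47 to -0.07 for Hoxb3, from -0.11 to 0.05 for Hoxb4, from -0.31 to -0.14 for Hoxb5, from -0.33 to -0.21 for Hoxb6 and from -0.06 to 0.00 for Hoxb9. Hoxb4 turned above 0 and Hoxb3 moved to -0.07 with the mean over probe sets, which brings in their second probe sets. No paired analysis was possible because each genotype has 1 array. Signal over background limits Hoxb5 and the second Hoxb4 probe set most.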
